A study of Mus musculus with 56 samples.

Results

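The 9 genes of red cells and neutrophils described here were followed in mouse visceral adipose tissue (VAT), of 25939 genes in the table. They were chosen by name: the rows whose Ensembl identifiers map to Hba-a1, Hba-a2, Hbb-bs, Hbb-bt and Alas2, 5 genes of red cells, and to S100a8, S100a9, Csf3r and Cxcr2, 4 genes of neutrophils. All 9 were found, and all 9 were tested without a filter on low values. The libraries came from 56 female C57BL/6J mice aged 9 weeks, which for 7 days were fed in the daytime only (DRF, daytime-restricted feeding) or, as the control, at night only (NRF), with no genetic change in any mouse. All had first lived under 12 h of light and 12 h of dark with free access to chow. Each regimen was sampled at 7 zeitgeber times (ZT, hours after lights on) from ZT0 to ZT24, 4 h apart, with 4 mice in each of the 14 groups. The comparisons ask whether the time of feeding changed the level of these transcripts in fat or their course over the day.

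Red cells carry oxygen on hemoglobin, a tetramer of alpha chains (Hba-a1 and Hba-a2) and beta chains (Hbb-bs and Hbb-bt), and Alas2 is the erythroid enzyme that starts heme synthesis. Young red cells keep these messenger RNAs after the nucleus is lost, so their reads reach any tissue that holds blood. Neutrophils store the calcium-binding pair S100a8 and S100a9, are made in response to G-CSF through its receptor Csf3r, and follow chemokines through Cxcr2. In mice the number of circulating neutrophils varies with time of day. Whether vessels were flushed before the fat was taken is not given in the sources used here. In bulk tissue, fewer cells of a type and less RNA per cell cannot be told apart.

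The alpha copies and the beta copies are near-identical, which bears on each of their values. Over the coding sequence of the first annotated transcript, Hba-a1 and Hba-a2 differ at 1 of 429 bases (C381T, counted from the start codon, Hba-a1 first), and Hbb-bs and Hbb-bt differ at 1 of 444 bases (C417T, Hbb-bs first). The 60 coding bases around each difference are shown from GENCODE vM21 on GRCm38, with the differing base in capitals: chr11:32284313-32284372 (plus strand) for Hba-a1, chr11:32297130-32297189 (plus) for Hba-a2, chr7:103826665-103826724 (minus) for Hbb-bs and chr7:103812656-103812715 (minus) for Hbb-bt.
Hba-a1: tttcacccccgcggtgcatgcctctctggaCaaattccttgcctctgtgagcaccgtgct
Hba-a2: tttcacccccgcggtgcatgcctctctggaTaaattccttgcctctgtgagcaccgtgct
Hbb-bs: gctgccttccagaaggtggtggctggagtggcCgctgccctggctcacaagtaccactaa
Hbb-bt: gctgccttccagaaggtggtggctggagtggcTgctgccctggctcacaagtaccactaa
Of all stretches of 150 bases, the length of 1 read, 48.4% of those in the Hba-a1 transcript and 65.7% of those in Hba-a2 also occur in the other copy. The shares were 58.7% for Hbb-bs and 50.7% for Hbb-bt. Whether the counting step divided or dropped such reads is not given in the sources used here, so the split between copies is uncertain. The sums of the alpha and of the beta reads are less exposed to a division, but would lack any dropped reads.

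The sequence before the transcript start is shown for the members that moved together and for the calprotectin pair, from RefSeq on GRCm38.p6 (all 9 members matched), because 4 of them hold the same combination of motifs. The 130 bases before the RefSeq start lie at chr11:32296362-32296491 (plus) for Hba-a2, chr7:103827929-103828058 (minus) for Hbb-bs, chr7:103813924-103814053 (minus) for Hbb-bt, chrX:150547287-150547416 (plus) for Alas2, chr3:90668941-90669070 (plus) for S100a8 and chr3:90695722-90695851 (minus) for S100a9. Capitals mark 4 motifs on either strand, the letters TATAA of the TATA box, the letters CCAAT of the box named for them, the letters CACCC of the box that erythroid Kruppel-like factor binds in globin genes, and the letters GATAA of the site of GATA factors. Runs of capitals can join neighbouring matches.
Hba-a2: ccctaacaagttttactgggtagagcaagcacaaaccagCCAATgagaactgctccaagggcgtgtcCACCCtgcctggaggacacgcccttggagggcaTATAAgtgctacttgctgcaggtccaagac
Hbb-bs: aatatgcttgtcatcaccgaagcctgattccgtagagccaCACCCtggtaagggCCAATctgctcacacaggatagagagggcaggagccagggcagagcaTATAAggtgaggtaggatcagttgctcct
Hbb-bt: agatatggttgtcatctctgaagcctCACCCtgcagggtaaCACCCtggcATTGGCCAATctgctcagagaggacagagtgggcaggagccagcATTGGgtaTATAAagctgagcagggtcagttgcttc
Alas2: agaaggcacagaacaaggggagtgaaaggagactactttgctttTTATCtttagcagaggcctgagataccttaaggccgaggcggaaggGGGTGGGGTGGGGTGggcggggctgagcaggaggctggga
S100a8: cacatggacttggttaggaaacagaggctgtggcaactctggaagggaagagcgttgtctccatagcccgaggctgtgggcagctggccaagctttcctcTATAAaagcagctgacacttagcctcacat
S100a9: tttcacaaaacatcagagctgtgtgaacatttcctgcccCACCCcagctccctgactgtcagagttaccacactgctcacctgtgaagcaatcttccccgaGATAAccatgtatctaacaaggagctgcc
Hba-a1 has the same sequence as Hba-a2 once its start is moved by 3 bases (247 of 247 compared bases identical). All 4 globin genes held the first 3 of these motifs in this window, a combination found in 0.825% of 32851 windows of this length in the table. Their order differed, with CCAAT farther from the start than CACCC in the alpha genes (-91 and -63 in Hba-a2) and nearer in Hbb-bs (-76 and -90). Singly, TATAA was found in 12.7% of the windows, CCAAT in 22.4%, CACCC in 33.7% and GATAA in 11.4%. In Alas2 the window held GATAA once and CACCC 3 times, in S100a9 it held each of these once, and in S100a8 it held TATAA alone. A match is a description of letters, not a measured site.

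Among the members, the red cell genes had far higher medians than the neutrophil genes, an order that does not extend to all genes of these cells. Levels are given in CPM, reads scaled to a common library size, from reads recovered out of the deposited values, with 31.05 to 41.06 M reads per library. To compare genes, CPM was divided by exon length in kb. The median over 56 libraries was 242 CPM per kb for Hba-a1, 95.5 for Hbb-bs, 44.2 for Hba-a2, 22.6 for Hbb-bt and 6.49 for Alas2. It was 1.27 CPM per kb for S100a8, 1.01 for Csf3r, 0.993 for S100a9 and 0.0468 for Cxcr2. The ranges of S100a8 (0.279 to 3.92 CPM per kb), Csf3r (0.661 to 1.90) and S100a9 (0.169 to 2.58) overlapped almost wholly, so their order is within the spread. The largest single value was 512 CPM of Hba-a1 (DRF ZT4 replicate 2), on 20435 reads. S100a9 rested on 3 to 58 reads, S100a8 on 8 to 107 and Cxcr2 on 0 to 24, with 2 libraries at 0 reads of Cxcr2, while Csf3r had 91 to 325.

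The labels were checked against marker genes. Adiponectin (Adipoq), an adipocyte hormone, stood at 2588 CPM in the median DRF mouse and 3041 in the median NRF mouse. The red cell membrane gene of band 3 (Slc4a1) had medians of 0.356 and 0.311 CPM. Of the neutrophil granule genes, Ngp had medians of 0.038 and 0.025 CPM and Mpo, myeloperoxidase, 0.030 and 0.027, near 0, while Prtn3 (3.00 and 5.79) and Mmp9 (22.8 and 30.6) were higher. Summed over the 28 measured genes of the neutrophil list, libraries held 238 to 7424 CPM under DRF and 215 to 410 under NRF, and the highest DRF value was in a library described next. Ly6g was not found in the table used.

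The libraries DRF ZT8 replicate 1 and DRF ZT0 replicate 4 stood apart from the other 54. On the second principal component, with 15.7% of the variance, their distances from the centre were 7.22 and 6.46 in units of the median absolute deviation, and that of the next library 1.65. Their summed level of 11 uterine and oviduct epithelial genes was 675 and 6999 CPM, against at most 115 in the others. Ltf and Lcn2, which epithelia also make, reached 4229 and 2666 CPM in DRF ZT0 replicate 4. In both libraries all 5 red cell genes were below the other 3 mice of the group. DRF ZT8 replicate 1 held the highest S100a9 (1.35 CPM) and Cxcr2 (0.557 CPM) of all 56 libraries, and the second highest Csf3r (6.12 CPM). Without the 2 libraries, the members' calls at single times numbered 22 in place of 19, and those of all genes 30804 in place of 25154.

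Over the day as a whole, all 5 red cell genes were higher under DRF than under NRF. Mean Hba-a1 was 288 ± 110 CPM under DRF and 187 ± 76.8 under NRF (SD, n = 28 mice each), and mean Hba-a2 was 50.7 ± 23.7 and 28.4 ± 14.5. Hbb-bs averaged 104 ± 41.2 and 69.8 ± 27.0 CPM, and Hbb-bt 24.7 ± 11.3 and 16.3 ± 7.53. Alas2 averaged 22.4 ± 9.64 and 14.4 ± 5.21 CPM. The ratios of these means lay between 1.5 (Hbb-bs) and 1.79 (Hba-a2), and ranges of single mice overlapped for every gene. Both ZT0 and ZT24 mice enter these means and those of the neutrophil genes below, so this clock time weighs more than any other. Summed over both copies, alpha globin averaged 339 ± 130 CPM under DRF and 216 ± 89.3 under NRF, and beta globin 129 ± 51.6 and 86.1 ± 34.1.

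The difference in rhythm-adjusted mean was tested with limma on log2(CPM + 1), adjusted over 25938 genes by Benjamini-Hochberg. Hba-a1 differed by 0.52 ± 0.13 (log2, SE, adjusted p = 0.0019), Hba-a2 by 0.66 ± 0.16 (0.0016), Hbb-bs by 0.48 ± 0.13 (0.0062), Hbb-bt by 0.44 ± 0.14 (0.019) and Alas2 by 0.45 ± 0.12 (0.0047). With S100a8, described below, 6 of 9 members were called higher and 0 lower, beside 11.4% of all genes called higher and 10.3% called lower. Scaled to the total of recovered reads instead, 2285 genes were called higher and 3420 lower, against 2965 and 2668, and 6 members were again called. The median difference was 0.48 over the 5 red cell genes and 0.45 over the 9 members, and within 0.01 of 0 over all genes. Hbb-bt lost its call without the mice numbered 2 (adjusted p = 0.091) or 4 (0.101), and no single library ended any of the 6 calls.

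**Figure D1:**
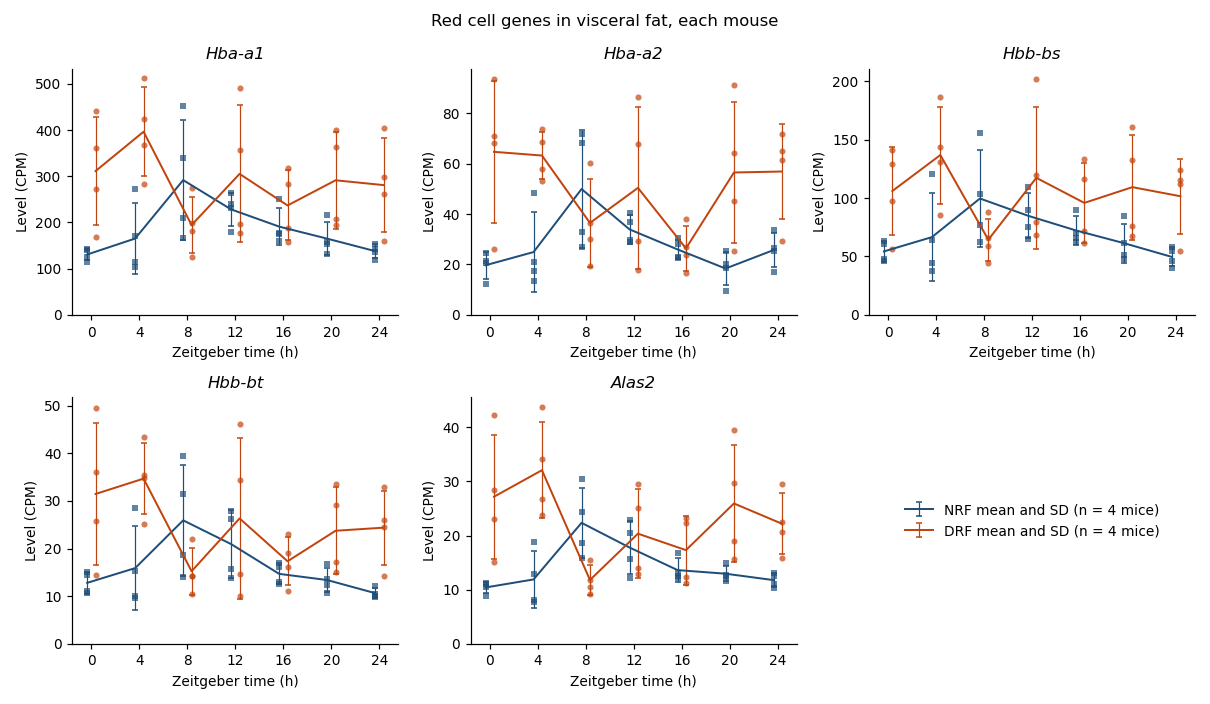
Level of the 5 red cell genes (CPM, linear axis) against zeitgeber time (h) for each of 56 mice, with lines through group means and bars of 1 SD (n = 4 mice). DRF (orange circles) lies above NRF (blue squares) at ZT0 and ZT4 in the group means of all 5 genes and below it at ZT8.

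The excess under DRF was not even over the day. At ZT4 the 4 DRF mice had 423, 512, 283 and 368 CPM of Hba-a1 and the 4 NRF mice 104, 114, 272 and 171. The groups did not overlap, and the lowest DRF mouse stood just above the highest NRF mouse. The mean ratio was 2.40, the log2 difference 1.33 ± 0.32 (limma, adjusted p = 0.0022), and an exact two-sided permutation test gave p = 0.0286, the smallest possible for 4 against 4.

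Alas2 gave the clearest separation at ZT4. Its values were 34.1, 43.7, 23.8 and 26.7 CPM under DRF and 7.77, 8.0, 18.8 and 12.9 under NRF, with no overlap, a ratio of 2.70 and a log2 difference of 1.41 ± 0.28 (limma, adjusted p = 0.00027). All 5 red cell genes were called higher at ZT4, beside 10.4% of all genes, and 3 of them had groups that did not overlap, beside 12.2% of all genes with DRF above. The other log2 differences at ZT4 were 1.47 for Hba-a2 (limma, adjusted p = 0.0086), 1.13 for Hbb-bs (0.014) and 1.18 for Hbb-bt (0.014). Without the mice numbered 2, 4 of the 5 calls at ZT4 were lost (Hba-a1 0.058, Hba-a2 0.071, Hbb-bs 0.178 and Hbb-bt 0.168) and that of Alas2 was not. Those of Hbb-bs and Hbb-bt were also lost without the mice numbered 1 (0.094 and 0.068). Those of Hba-a2, Hbb-bs and Hbb-bt were lost without the mice numbered 4 (0.065, 0.051 and 0.055). Single libraries ended some of these calls: for Hba-a2, NRF ZT4 replicate 4 (0.0508), for Hbb-bs, DRF ZT4 replicate 2 and NRF ZT4 replicates 1 and 2 (0.0587, 0.0706 and 0.053), and for Hbb-bt, NRF ZT4 replicates 1 and 2 (0.0591 and 0.0573).

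At ZT0, lights on, NRF mice were low and close together. Their Hba-a1 was 140, 115, 126 and 142 CPM, while DRF mice had 441, 273, 362 and 170. All DRF mice were above all NRF mice, also for Hba-a2 and Alas2, and the lowest DRF mouse was the library that stood apart. Log2 differences were 1.17 for Hba-a1 (limma, adjusted p = 0.014), 1.57 for Hba-a2 (0.0093), 1.12 for Hbb-bt (0.035) and 1.22 for Alas2 (0.0029). Hbb-bs, at 0.88, was not called (0.085), but was without DRF ZT0 replicate 4, the library that stood apart (1.16, adjusted p = 0.029). The 4 calls stand beside 5.41% of all genes called higher, and the 3 genes without overlap beside 5.14%. Hba-a1 lost its call without DRF ZT0 replicate 1 (0.066), Hba-a2 without NRF ZT0 replicate 2 (0.0507) and Hbb-bt without any of DRF replicates 1 and 3 and NRF replicates 2 and 3 (0.0786 to 0.151).

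ZT24 was sampled from other mice at the same clock time as ZT0 and gave the same direction. Hba-a1 had 159, 404, 262 and 298 CPM under DRF and 142, 119, 154 and 137 under NRF, so each DRF mouse exceeded each NRF mouse. Of 5 red cell genes 3 were called higher, beside 6.1% of all genes, and had groups without overlap, beside 8.13%, at log2 differences of 0.95 for Hba-a1 (limma, adjusted p = 0.047), 1.07 for Hbb-bt (0.042) and 0.83 for Alas2 (0.045). These calls were marginal: 14 libraries each ended the Hba-a1 call, and 7 each those of Hbb-bt and Alas2, among them all 4 NRF ZT24 mice.

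At ZT8, late in the light period, the order turned over. Alas2 was 9.28, 11.7, 10.6 and 15.6 CPM under DRF and 15.8, 30.4, 18.7 and 24.4 under NRF, with the highest DRF mouse just under the lowest NRF mouse. The difference was -0.85 ± 0.28 (log2, limma, adjusted p = 0.030, exact permutation p = 0.0286), the 1 red cell call at this time, beside 7.47% of all genes called lower and 5.81% without overlap and lower. Without either of DRF ZT8 replicates 1 and 3 or NRF replicates 2 and 4 it was not called (adjusted p 0.0691 to 0.129), nor without the 2 libraries that stood apart (-0.75, adjusted p = 0.062). All 4 globins also had lower means under DRF and overlapping groups, none of them called, and the median difference of the 5 red cell genes was -0.58. Leaving out 1 library moved these differences between -0.76 and -0.28 for Hba-a1, -0.70 and -0.17 for Hba-a2, -0.77 and -0.34 for Hbb-bs and -0.91 and -0.44 for Hbb-bt. Adipocyte genes were also lower at ZT8, 5 of 10 called lower and 1 higher, with a median of -0.50. Their median was 0.06 at ZT0, 0.28 at ZT4, -0.40 at ZT12 (4 called lower and 1 higher), -0.27 at ZT16, 0.20 at ZT20 and 0.39 at ZT24 (4 called higher and 0 lower). From 0 to 1 adipocyte genes were called in each direction at ZT0, ZT4, ZT16 and ZT20. Of all genes, 8.99% were called higher at ZT8, 8.76% at ZT12 and 6.1% at ZT24. The share of all genes called lower at ZT12 is not given. The part of the adipocyte genes in the red cell differences was not tested.

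At ZT12 and ZT16 no red cell gene was called, with medians of 0.30 and 0.27 over the 5 genes, and DRF mice were widely spread. At ZT12, Hba-a1 ran from 176 to 492 CPM under DRF and from 179 to 263 under NRF. At ZT20, Hba-a2 (25.5, 91.1, 45.2 and 64.3 CPM under DRF, 9.55, 18.7, 25.2 and 20.1 under NRF) and Alas2 (15.6, 39.4, 19.0 and 29.7 under DRF, 14.9, 12.8, 12.5 and 11.6 under NRF) were called higher, beside 6.71% of all genes. Their groups did not overlap, beside 9.6% of all genes, with log2 differences of 1.5 (limma, adjusted p = 0.0095) and 0.87 (0.032). Hba-a2 at this time was not called without DRF ZT20 replicate 2 (0.0643) or NRF ZT20 replicate 1 (0.0608), and the latter mouse had the most unequal alpha copies of all. Alas2 was not called without any of 5 libraries (0.066 to 0.18), which were DRF ZT20 replicates 2 and 4 and NRF ZT20 replicates 2, 3 and 4.

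**Figure D2:**
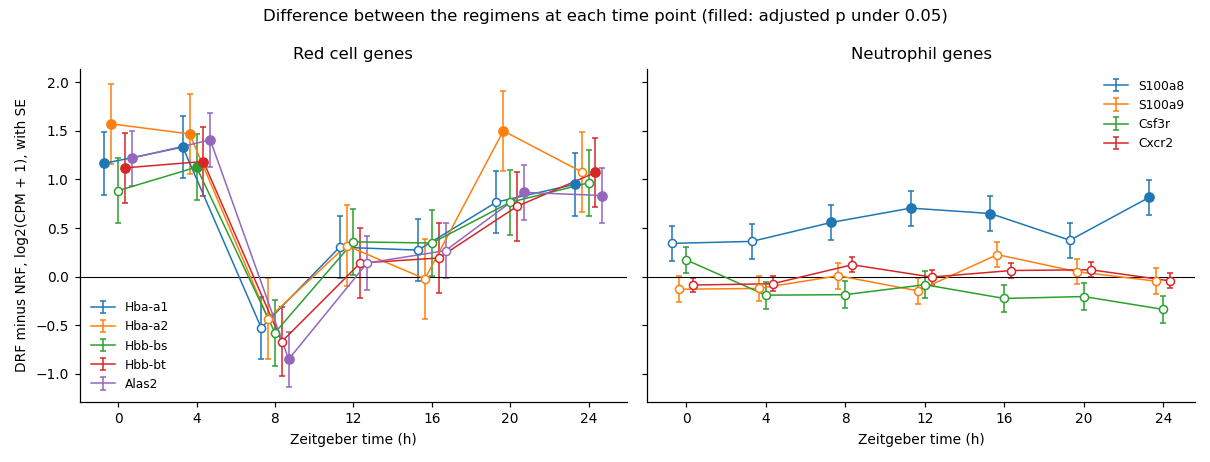
Difference between DRF and NRF in log2(CPM + 1) at each zeitgeber time (h), with bars of 1 SE from limma and filled points where the adjusted p is under 0.05, for 5 red cell genes (left) and 4 neutrophil genes (right). Red cell genes fall from above 0 at ZT0 and ZT4 to below 0 at ZT8 and climb back, while S100a8 stays above 0 at all 7 times.

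Under NRF the red cell genes had a 24-h rhythm with its high point around ZT8 to ZT12, in the daily fast. Group means of Hba-a1 were 131 CPM at ZT0, 165 at ZT4, 292 at ZT8, 228 at ZT12, 191 at ZT16, 165 at ZT20 and 138 at ZT24. The highest group was thus 2.23 times the lowest, and neighbouring times overlapped, with NRF ZT8 mice between 166 and 452 CPM. In the combined JTK_CYCLE and Lomb-Scargle test on the deposited values, all 5 red cell genes and S100a9 passed, beside 26.8% of all genes. Adjusted p was 0.0027 for Hba-a1, 0.032 for Hba-a2, 0.0097 for Hbb-bs, 0.026 for Hbb-bt and 0.012 for Alas2. All 5 also passed a test of a 24-h cosine in limma, as did S100a8 and S100a9, beside 33.7% of all genes. NRF ZT8 replicates 2 and 4 each ended the cosine calls of Hba-a2, Hbb-bs, Hbb-bt and Alas2 (adjusted p 0.054 to 0.077), and up to 2 further libraries ended some of them, while no single library ended that of Hba-a1. The cosine put their peaks between ZT9.46 (Hba-a2) and ZT10.9 (Hbb-bs), with peak-to-trough differences of 0.76 (Alas2) to 1.05 (Hba-a2) in log2. Without the mice numbered 2, or those numbered 4, no member passed the combined test under NRF, and Lomb-Scargle alone called no gene of the table. Without the ZT24 libraries, Hbb-bs (adjusted p = 0.129) and Hbb-bt (0.280) did not pass the combined test.

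Under DRF no member passed the combined test (adjusted p = 1 for all 9, and 0 with an unadjusted p under 0.05), beside 15.0% of all genes. The limma cosine called Hba-a2 (adjusted p = 0.047, peak ZT1.65, peak-to-trough 0.95) and Alas2 (0.036, peak ZT23.6, 0.74) under DRF, beside 26.7% of all genes, and 23 and 10 single libraries ended those calls. DRF group means of Alas2 were 27.2 CPM at ZT0, 32.1 at ZT4, 11.8 at ZT8, 20.4 at ZT12, 17.3 at ZT16, 25.9 at ZT20 and 22.2 at ZT24. In a limma test for any difference among the 7 times, Alas2 was the 1 member of 9 to pass under DRF (adjusted p = 0.0039), beside 28.2% of all genes. It did not pass without the mice numbered 2 (0.0505). Without the 2 libraries that stood apart, Hba-a2 passed too (0.043, against 0.098 with them), and under NRF so did Hba-a1 (0.037, against 0.066). Under NRF, Alas2 (0.041), S100a9 (0.037) and Csf3r (0.048) passed that test, beside 27.6%, each losing the call without some single libraries (12, 10 and 42 of 56).

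The difference in rhythm itself was tested by letting both 24-h terms depend on the regimen. All 5 red cell genes passed (limma, adjusted p = 0.0095 for Hba-a1, 0.0037 for Hba-a2, 0.039 for Hbb-bs, 0.0062 for Hbb-bt and 0.00079 for Alas2), and 0 of 4 neutrophil genes did, with unadjusted p of 0.27 or more. Of all genes 36% passed. No single library ended the calls of Hba-a1, Hba-a2, Hbb-bt or Alas2, but 18 of 56 ended that of Hbb-bs (adjusted p up to 0.071), as did leaving out the ZT24 libraries (0.092). Leaving out all mice numbered 2 left 1 of the 5 calls, and all numbered 3 left 2. Because no member was rhythmic under both regimens in the combined test, phase and amplitude were not compared between regimens.

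Groups at the same hour of the feeding cycle lie 12 h apart on the clock. In the DRF ZT4 and NRF ZT16 groups, Hba-a1 was 423, 512, 283 and 368 CPM against 160, 178, 176 and 250, without overlap. The log2 differences were 1.04 for Hba-a1 (limma, adjusted p = 0.026), 1.25 for Hba-a2 (0.037), 1.17 for Hbb-bt (0.023) and 1.15 for Alas2 (0.0049), so 4 red cell genes and S100a8 were called higher, beside 7.09% of all genes. Of these, only the calls of Alas2 and S100a8 survived leaving out each single library. That of Alas2 was lost without the mice numbered 2 (0.96, adjusted p = 0.064). In the other 5 matched pairs no red cell gene was called. The DRF ZT12 and NRF ZT24 groups came nearest, with a red cell median of 1.00, and 1.02 for Hba-a1 (limma, adjusted p = 0.10) and 1.11 for Hbb-bs (0.083), not called. Without DRF ZT12 replicate 3, Hba-a1 (1.24, adjusted p = 0.049) and Hbb-bt (1.36, 0.042) were called. In the same pair S100a9 (-0.43, limma, adjusted p = 0.085), Csf3r (-0.36, 0.19), Cxcr2 (-0.10, 0.60) and S100a8 (0.43, 0.25) were not called. S100a9 was called without DRF ZT8 replicate 1 (0.036) or DRF ZT12 replicate 3 (0.049). Of all genes, 1.55% were called in that pair. For the pairs DRF ZT8 with NRF ZT20 and DRF ZT16 with NRF ZT4, 1.05% and 10.4% of all genes were called. For the DRF ZT8 and NRF ZT20 groups the red cell median difference was 0.14, for DRF ZT20 and NRF ZT8 0.13, for DRF ZT0 and NRF ZT12 0.50 and for DRF ZT16 and NRF ZT4 0.52, with all 5 genes higher under DRF in the last 2 pairs. Without the 2 libraries that stood apart, calls over the 6 matched pairs numbered 11 in place of 7 among members and 14002 in place of 10019 among all genes.

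**Figure D3:**
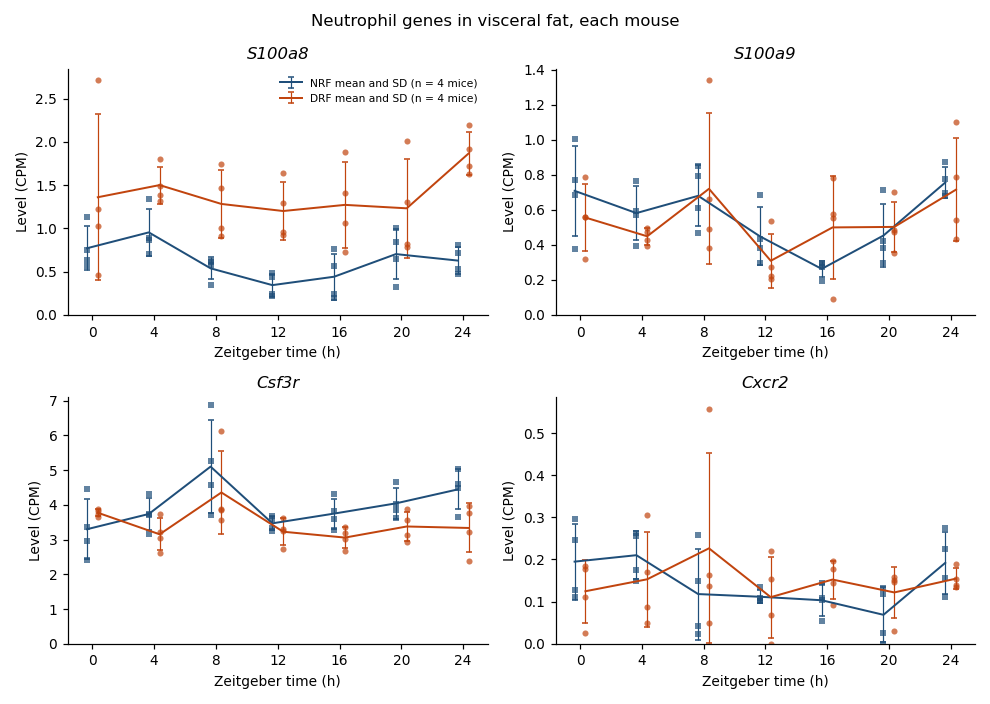
Level of the 4 neutrophil genes (CPM, linear axis) against zeitgeber time (h) for each of 56 mice, with lines through group means and bars of 1 SD (n = 4 mice). S100a8 means are higher under DRF (orange) than under NRF (blue) at all 7 times, whereas S100a9, Csf3r and Cxcr2 cross or overlap.

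S100a8 was higher under DRF at all 7 times, while its partner S100a9 was not. S100a8 averaged 1.39 ± 0.51 CPM under DRF and 0.625 ± 0.28 under NRF (SD, n = 28 each), a ratio of 2.22. The mean differed by 0.56 ± 0.07 on the log2(CPM + 1) scale (limma, adjusted p = 2.4e-08), which understates the fold of so low a gene. S100a9 averaged 0.536 ± 0.26 CPM and 0.556 ± 0.22, a log2 difference of -0.02 ± 0.05 (adjusted p = 0.87).

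Single mice show the same contrast. At ZT24, S100a8 was 1.63, 1.92, 2.19 and 1.72 CPM under DRF (58 to 81 reads) and 0.524, 0.469, 0.804 and 0.712 under NRF (18 to 31 reads), far apart. S100a9 in the same mice was 0.786, 1.10, 0.542 and 0.436 CPM under DRF and 0.699, 0.678, 0.776 and 0.873 under NRF, intermingled. The ratio of S100a8 to S100a9 was 2.67 in the median DRF mouse and 1.02 in the median NRF mouse, and its mean log2 differed by 1.31 between regimens (two-sided permutation test over 28 and 28 mice, p = 2e-05, the smallest its resamples can give). This ratio was tested after the values had been seen.

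At single times S100a8 was called higher at ZT8 (limma, adjusted p = 0.026), ZT12 (0.0044), ZT16 (0.014) and ZT24 (0.0018), beside 8.99%, 8.76%, 5.0% and 6.1% of all genes. At ZT8, ZT12 and ZT24 the groups did not overlap, beside 5.94%, 11.8% and 8.13% of all genes. The widest ratio was 3.49 at ZT12, where DRF mice had 1.29, 1.63, 0.922 and 0.956 CPM and NRF mice 0.481, 0.435, 0.215 and 0.243. Those groups did not overlap, and the NRF values rest on 8 to 19 reads. At ZT0, ZT4 and ZT20 the groups overlapped and the log2 differences, 0.34 to 0.37, were not called. At ZT0 the difference ran from 0.10 to 0.54 as single libraries were left out, and it was called without DRF ZT0 replicate 4, a library that stood apart (0.54, adjusted p = 0.047). The ZT8 call was lost without DRF replicate 1 or 3 or NRF replicate 1 (0.0608, 0.105 and 0.0884), and the ZT16 call without DRF replicate 1 or NRF replicate 1 or 2 (0.0861, 0.0735 and 0.053). In the matched pair DRF ZT0 with NRF ZT12, S100a8 alone was called (limma, 0.73, adjusted p = 0.012), beside 1.73% of all genes, and not without DRF ZT0 replicate 1 (0.104).

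S100a9 had a 24-h rhythm under NRF, with an adjusted p of 0.018 in the combined test and a limma cosine peak at ZT3.42. Leaving out the mice of any 1 number ended the call in the combined test (0.085 to 0.243). Its NRF group means were 0.709 CPM at ZT0, 0.582 at ZT4, 0.681 at ZT8, 0.449 at ZT12, 0.263 at ZT16, 0.454 at ZT20 and 0.757 at ZT24. The 4 mice at ZT16 had 0.194, 0.273, 0.297 and 0.287 CPM and those at ZT24 had 0.699, 0.678, 0.776 and 0.873, without overlap, on 8 to 11 and 26 to 38 reads. S100a8 under NRF followed a like course, from 0.953 CPM at ZT4 to 0.344 at ZT12, with an adjusted p of 0.054 in the combined test. It passed in the limma cosine (0.041), a call that 10 single libraries each ended, and not in the combined test when the mice of any 1 number were left out (0.070 to 0.637). S100a8 did pass the combined test on log2(CPM + 1) (adjusted p = 0.039), among genes with a mean of at least 1 CPM (0.034) and without the ZT24 libraries (0.018). It also passed JTK_CYCLE alone (0.037).

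Csf3r, the G-CSF receptor, ranged from 2.38 to 6.87 CPM over all mice. It averaged 3.47 ± 0.68 CPM under DRF and 3.98 ± 0.86 under NRF, with DRF group means lower at 6 of 7 times. The log2 difference was -0.15 ± 0.06 (limma, adjusted p = 0.065), not called. It was called among genes with a mean of at least 1 CPM (adjusted p = 0.038), from the 14 group means (0.030), without the 2 libraries that stood apart (-0.19, adjusted p = 0.011) and without any 1 of DRF ZT8 replicate 1 (0.0133), NRF ZT0 replicates 1 and 2 (0.049 and 0.0316), NRF ZT4 replicate 3 (0.0479) and NRF ZT12 replicate 3 (0.0472). Its highest values were 6.87 CPM in NRF ZT8 replicate 2 and 6.12 in DRF ZT8 replicate 1. The DRF ZT20 mice (3.14, 2.93, 3.56 and 3.88 CPM) were below the NRF ZT8 mice (5.27, 6.87, 4.58 and 3.70) at the matched hour of fasting, with an overlap of 1 mouse. That difference was -0.46 (limma, adjusted p = 0.026, exact permutation p = 0.0571), beside 4.1% of all genes called lower, and 5 single libraries each ended it (0.0509 to 0.192).

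Cxcr2, the chemokine receptor, was near the limit of detection. It averaged 0.149 ± 0.10 CPM under DRF and 0.143 ± 0.081 under NRF, the log2 difference was 0.01 ± 0.03 (limma, adjusted p = 0.78), and no comparison of all 56 libraries called it. Its 24-h cosine under NRF (adjusted p = 0.093) was called without DRF ZT8 replicate 1 (0.029). Both libraries at 0 reads (DRF ZT12 replicate 4 and NRF ZT20 replicate 3) allow up to 3 reads each, and a change of a few reads was not detectable at this depth. The counting limit covers counting error only.

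**Figure D4:**
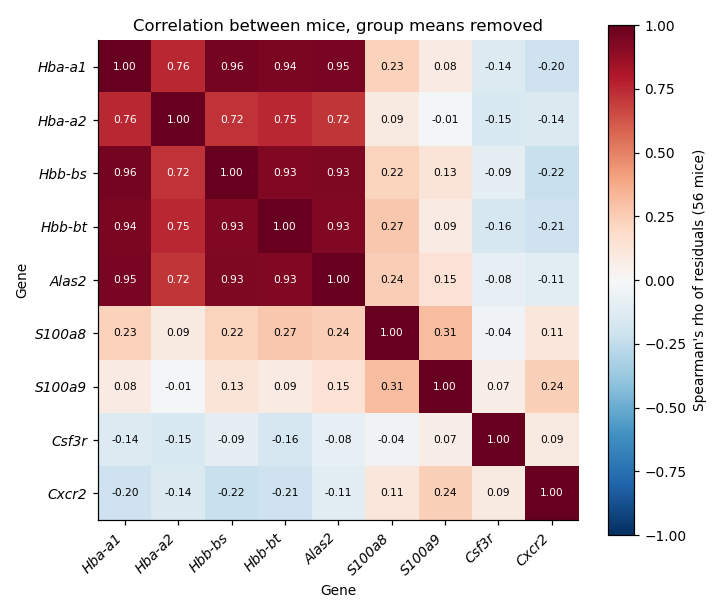
Spearman's rho between members across 56 mice after removing the means of the 14 groups, with both axes listing the 9 genes. The 10 red cell pairs lie between 0.72 and 0.96, the 6 neutrophil pairs between -0.04 and 0.31.

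Between mice of one group, the red cell genes moved together and the neutrophil genes did not move with them. After the 14 group means were removed, Pearson's r over 56 mice ran from 0.745 to 0.965 in the 10 red cell pairs and Spearman's rho from 0.718 to 0.961. Every pair had a permutation p of 1e-05, the smallest 100000 permutations can give, adjusted to at most 5.6e-05 over 56 correlations computed. Hba-a1 and Hbb-bs, on different chromosomes, had the closest tie (r = 0.965 and rho = 0.961, r = 0.959 without the 2 farthest mice, 0.973 within DRF and 0.951 within NRF). Hba-a2 was looser, with r of 0.492 to 0.562 to the other red cell genes within NRF and 0.857 to 0.928 within DRF. The ratio of summed alpha to summed beta reads stayed between 2.14 and 3.14 in all 56 libraries, whereas Hba-a1 over Hba-a2 ran from 3.84 to 22.7. The highest ratio was in NRF ZT20 replicate 1, with 8468 reads of Hba-a1 and 373 of Hba-a2.

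No pair of a red cell gene with a neutrophil gene passed (20 pairs, rho from -0.220 to 0.268, adjusted p of Spearman's test 0.17 or more). Among the 6 neutrophil pairs, rho lay between -0.037 and 0.307 and none passed by Spearman's test, while S100a9 with Cxcr2 passed by Pearson's alone (r = 0.341, permutation adjusted p = 0.039). That r was 0.220 without the 2 farthest mice and 0.144 without the 2 libraries that stood apart. S100a8 and S100a9 had r of 0.655 within NRF and 0.060 within DRF, a difference that was not tested. At this depth the neutrophil genes thus did not vary as 1 set between mice. Whether their reads came from neutrophils, in blood or in the tissue, was not tested.

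**Figure D5:**
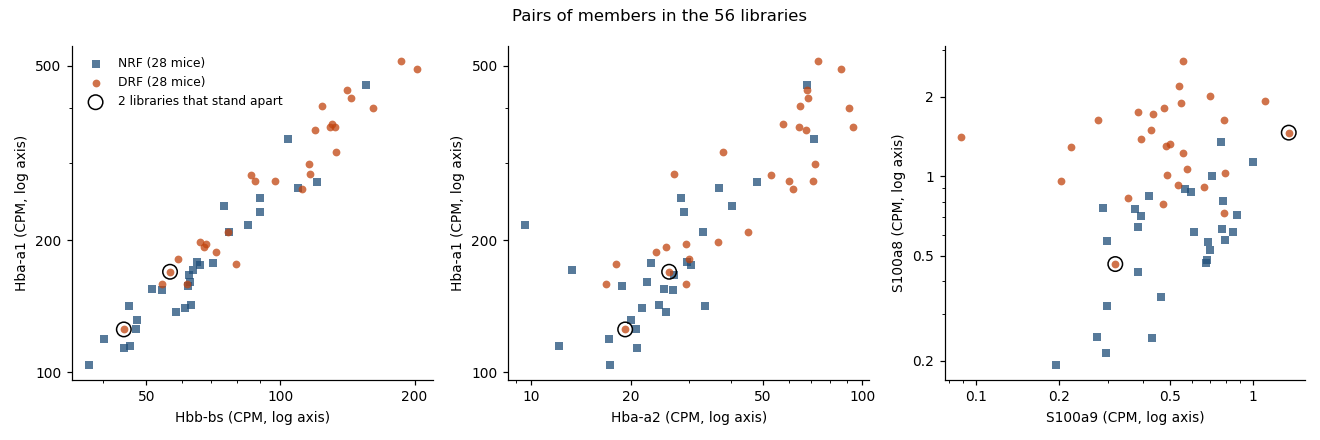
Level of Hba-a1 against Hbb-bs (left), Hba-a1 against Hba-a2 (middle) and S100a8 against S100a9 (right) in 56 libraries, in CPM on log axes, with the 2 libraries that stand apart ringed. Hba-a1 and Hbb-bs lie on 1 line in both regimens, and S100a8 is shifted up under DRF (orange) at like levels of S100a9.

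The spread of red cell genes between mice was large. The SD within groups was 0.47 (log2) for Hba-a1, 0.61 for Hba-a2, 0.49 for Hbb-bs, 0.52 for Hbb-bt and 0.41 for Alas2, above 92.7% (Alas2) to 97.6% (Hba-a2) of the 14303 genes with a mean of at least 1 CPM. The SD that counting alone gives was 0.016 (Hba-a1) to 0.055 (Alas2). The 14 groups held 47.9% (Hbb-bs) to 63.0% (Alas2) of the variance, beside a median of 50.0% over those 14303 genes. For S100a8 the SD was 0.26 with a counting error of 0.11, for S100a9 0.19 with 0.11, for Csf3r 0.19 with 0.096 and for Cxcr2 0.11 with 0.075. Counting error was thus a larger part of the SD in these genes than in the red cell genes. All 5 red cell SDs were larger within DRF (0.48 to 0.69) than within NRF (0.32 to 0.51), a difference that was not tested.

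The genes most like the red cell members were ranked by Spearman's rho of their residuals with the mean standardised residual of the 5, over 56 mice and 14296 genes of at least 1 CPM. Among them was Bpgm (rho = 0.837), the red cell enzyme that makes 2,3-bisphosphoglycerate, which was in the list of erythroid genes. Lower rho were found for Oaz2 (0.638), Mrpl45 (0.633), Pcbp2 (0.594), Grhpr (0.593), Sod1 (0.592) and Khk (0.590). Bpgm ran from 16.8 to 35.2 CPM and was higher under DRF at ZT4 by 0.40 (limma, adjusted p = 0.032), as was Grhpr by 0.44 (0.028). In the mean, Bpgm was higher under DRF (0.20, limma, adjusted p = 0.0037). Pcbp2 (-0.15, 0.00031), Sod1 (-0.27, 0.0013) and Khk (-0.23, 0.00014) were lower, against the direction of the red cell genes. Oaz2, Mrpl45 and Grhpr were not called in the mean. For the neutrophil members the highest rho were lower, 0.477 for Gins2, 0.473 for Pcbd1, 0.468 for Ccdc66 and for Prr7, 0.464 for Aldh1a3, 0.461 for Pum3, 0.460 for U2surp and 0.447 for Pms2, and none of the 8 was in a neutrophil list.

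Other erythroid genes were called in the mean about as often as all genes. Of 30 listed, 24 were measured, 4 were called higher under DRF in the mean and 1 lower, beside 11.4% and 10.3% of all genes, with a median of 0.02 (log2). At ZT0, 6 were called higher and 1 lower, beside 5.41% of all genes called higher, and at ZT4 4 were higher and 1 lower, beside 10.4%. At ZT8 1 was called higher and 2 lower, beside 8.99% and 7.47% of all genes, and at ZT12 2 higher and 1 lower, beside 8.76% higher. At ZT16, ZT20 and ZT24 0 were called higher and 1 lower each, beside 5.0%, 6.71% and 6.1% higher. The share of all genes called lower is not given for times other than ZT8, so the lower calls at those times stand without one. In the mean, the 4 smallest adjusted p belonged to Bpgm (0.20, limma, adjusted p = 0.0037), Tmcc2 (-0.17, 0.0067), Gypc (0.23, 0.0080), a glycophorin found in many cells, and Fech (0.14, 0.023), the last enzyme of heme synthesis. Of the 24, 10 had a different rhythm in the 2 regimens, beside 36% of all genes, among them Gypc (2.7e-14), Epor, the erythropoietin receptor (5.6e-09), Ermap (0.0019) and Sptb (0.0033). Their summed level, 202 to 295 CPM under DRF and 217 to 281 under NRF, included Fech at medians of 138 and 122 CPM. Its residuals had r = 0.439 with those of Hba-a1 (permutation adjusted p = 0.0025), 0.635 within DRF and 0.005 within NRF, a difference that was not tested.

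Of 28 measured neutrophil genes outside the members, 1 was called higher and 2 lower under DRF, beside 11.4% and 10.3% of all genes, with a median of 0.01. Prtn3, proteinase 3, fell from 5.79 CPM in the median NRF mouse to 3.00 in the median DRF mouse (-0.95, limma, adjusted p = 1.1e-06), Mmp9, gelatinase B, from 30.6 to 22.8 (-0.49, 9.6e-06), and Anxa1, annexin A1, which many cells make, rose from 196 to 227 (0.29, 0.00056). Of 9 measured chemoattractants and retention signals, Cxcl12 (-0.44, limma, adjusted p = 1.8e-06), which holds neutrophils in marrow through Cxcr4, and Icam1 (-0.15, 0.027), to which leukocytes adhere, were called lower and none higher.

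Some markers of other cells in fat and blood differed in the mean too, beside 11.4% of all genes called higher and 10.3% called lower, and their part in the red cell and S100a8 differences was not tested. Of 12 platelet genes 2 were called, Pf4 (-0.26, limma, adjusted p = 0.016) and Itga2b (-0.28, 0.013), both lower under DRF, against the direction of the red cell genes. Of 12 monocyte and macrophage genes, 7 were lower and none higher, the first 4 being Ccr2 (-0.41, limma, adjusted p = 1.6e-05), Mrc1 (-0.34, 2.5e-05), Csf1r (-0.33, 3.9e-05) and Adgre1 (-0.26, 0.0071), and their median was -0.25. Of 16 lymphocyte genes 5 were lower, led by Ighm (-0.60, limma, adjusted p = 5.5e-05), and Trac was higher (0.80, 3.5e-05). Of 8 mesothelial genes 4 were lower, and of 8 endothelial genes 2. In adipocyte genes 2 of 10 were higher, Lep (0.60, limma, adjusted p = 0.0051) and Lpl (0.24, 0.011), and 2 lower, Cfd (-1.37, 1.6e-10) and Adipoq (-0.31, 0.0052). None of 11 uterine and oviduct genes was called.

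Across mice, Hba-a1 residuals followed the summed adipocyte level (r = 0.515, permutation adjusted p = 5.1e-05, rho = 0.488, adjusted p = 0.0011). The r was 0.527 within DRF, 0.502 within NRF and 0.478 without the 2 farthest mice. They also followed the summed chemoattractants (rho = 0.454, permutation adjusted p = 0.0029), of which Cxcl12 is the largest part, and this was 0.303 within DRF and 0.599 within NRF. Correlations with the summed endothelial (rho = 0.190), platelet (0.240), lymphocyte (-0.120) and macrophage (0.110) levels did not pass. The summed adipocyte level ran from 13349 to 41931 CPM under DRF, with the lowest value in the library DRF ZT8 replicate 1, and from 27522 to 47107 under NRF. Its part in the red cell differences was not tested.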

How the data were processed

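RNA-seq of VAT was described by the authors as poly(A) libraries made with a kit that does not mark strand (NEBNext Ultra), read as 150-base pairs, and the submitters' processing notes name HISAT2 2.0.5, featureCounts 1.5.0-p3 and mm10. The deposited values, labelled TPM, were not linear: each was a score, a library constant times log2(1 + CPM) divided by exon length. Whole reads were recovered from the scores for 25938 of 25939 genes (99.9915% of 1261974 values up to 10000 reads lay within 0.02 of a whole number). CPM used the library sizes implied by the values (31.79 to 47.3 M) in place of the read totals that had been planned. Log2(CPM + 1) was tested with limma 3.58.1 on R 4.3.3 (trend, with 24-h cosine and sine terms per regimen or with the 14 groups), and the deposited scores with JTK_CYCLE and Lomb-Scargle joined by Fisher's method. P-values were adjusted by Benjamini-Hochberg over all genes, with a threshold of 0.05, and correlations used 100000 permutations and adjustment over the 56 computed. The steps were tested on simulated data. P-values set a difference, rhythm or correlation against the spread between the sampled mice. Alternatives changed the pseudocount, scale, filter, test, replicates and libraries. Genes named were the members, the 8 genes most like each class in residual rank correlation, and genes of the lists past the threshold, the 4 of smallest adjusted p where more. Marker genes of other cells were named as checks outside that rule. Some genes that these rules name are not reported here. Members and lists were chosen with earlier results of these data known.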

Additional observations from a re-analysis of the deposited data

Results flagged for a closer look

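In 4 of the 126 sets of 4 mice formed by 9 genes and 14 groups, 1 mouse lay far from the other 3, and chance alone gives about 1 in 20. Hbb-bs in DRF ZT24 replicate 1 was low, at 54.3 CPM against 112 to 124 in the other 3. S100a8 in NRF ZT8 replicate 1 was low, at 0.350 CPM against 0.571 to 0.617. Csf3r in DRF ZT8 replicate 1, a library that also stood apart on the second principal component, was high, at 6.12 CPM against 3.55 to 3.89. Cxcr2 in DRF ZT20 replicate 4 was low, at 0.0303 CPM against 0.147 to 0.157, which is 1 read.

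The 24-h course of 5 genes differed between DRF and NRF by the interaction test of limma, with adjusted p of 0.0095 for Hba-a1, 0.0037 for Hba-a2, 0.039 for Hbb-bs, 0.0062 for Hbb-bt and 0.00079 for Alas2. All 5 were measured in the same mice and correlate between mice, so they are not 5 separate results.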

How the results depend on the processing

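Of 9 members, 6 differed in mean between the regimens. Under the alternatives this count was 6 or 7, except that it was 5 without the mice numbered 2 or numbered 4. Leaving out the mice of 1 number, which also cuts each group to 3, moved the count of rhythm differences between 1 and 5 (5 with all mice), that of differences of any shape between 0 and 3 (4), that of single time points between 4 and 17 (19), that of matched pairs between 1 and 4 (7) and that of rhythms under NRF between 0 and 5 (6), while under DRF it was 0 throughout. The counts over all genes fell as well, to 7364 to 8266 (9338 with all mice), 7770 to 12061 (14457), 13423 to 22144 (25154), 3668 to 8622 (10019) and 4364 to 5646 (6940) in the same order. On the deposited scale, log2(value + 1), 9 calls were lost (Hba-a1, Hbb-bt and Alas2 at ZT24, Hba-a1 and Hbb-bt at ZT0, Alas2 at ZT20, Hba-a2 in the pair DRF ZT4 with NRF ZT16, the rhythm difference of Hbb-bs and S100a9 in any shape under NRF, adjusted p 0.051 to 0.098) and 1 was gained. Voom weights left 2 differences of any shape (Alas2 and S100a9 under NRF were lost, 0.052 and 0.053) and ended the ZT24 calls of Hbb-bt (0.058) and Alas2 (0.056), Lomb-Scargle alone left 0 rhythms under NRF, the limma F test gave 2 under DRF, and leaving out the 2 libraries apart, added after seeing the data, gave 11 calls in matched pairs. Same-numbered mice of the 2 regimens showed little common deviation (8 of 28 pairs with r over 0.1, median 0.02). With a block for the replicate number, however, calls over all genes rose, from 14457 to 15509 for any shape and from 25154 to 26872 at single times. Whether mice of 1 number share an effect was not tested further. With the replicate block the counts were 6 for the mean, 19 for single time points, 7 for matched pairs, 3 for any shape (Csf3r was lost, adjusted p = 0.059) and 7 for rhythms under NRF (S100a8 was gained, 0.016), 5 for the rhythm difference and 0 under DRF, and it changed no other member's call. The median rho of red cell with neutrophil pairs changed sign, from -0.049 to 0.0061 without the 2 libraries apart and to between -0.117 and 0.072 without 1 replicate number, and that of neutrophil pairs (0.101) lay between 0.082 and 0.234. The mean difference of Cxcr2 (0.01) lay between -0.023 and 0.049 and that of S100a9 (-0.02) between -0.056 and 0.070 without 1 number, and Cxcr2 gave -8.9e-05 without the 2 libraries apart, none of them called. The cause was not tested. With a pseudocount of 0.1 CPM the spread of S100a8, S100a9 and Cxcr2 rose to 0.50, 0.48 and 0.52. The total of recovered reads as a scale, also added, changed the split of all genes from 2965 higher and 2668 lower to 2285 and 3420, with 6 members called in the mean. It ended the ZT24 calls of Hba-a1 (0.053) and Alas2 (0.060), that of Hba-a2 in the pair DRF ZT4 with NRF ZT16 (0.051) and that of Csf3r in any shape under NRF (0.0506), where Hba-a1 and Hba-a2 were gained (0.031 and 0.040). The phase comparison on log2(CPM + 1) was not run, as no member passed the combined test under both regimens, although the limma cosine called Hba-a2 and Alas2 under both.

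Depth limits S100a8, S100a9 and Cxcr2, which rest on few reads per library. The split between globin copies is uncertain, as how reads shared by both copies were counted is not given in the sources used here.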
